A study of Mus musculus with 3 samples.

Results

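Skeletal muscle of exercised mice given SQH was compared with muscle of unexercised control mice, across all expressed genes. A gene row was kept if its mean linear value (2 to the power of the deposited log2 value, with 0 left at 0) across the 3 libraries reached 66.5, which is the middle of the 15714 rows that were not 0 throughout. This kept 7857 of 24481 rows. All mice were of the ICR stock, an outbred laboratory mouse, sampled at postnatal day 42, and carried no stated genetic change. The control group is labelled Control(NC), the comparison group Exercise SQH(ES), and a further group, Exercise Control(EC), here called exercise alone, entered the expression minimum and is printed beside the others. The study title names leaf extracts of the bamboo Sasa quelpaertensis and a test of fatigue. The labels give neither a dose of SQH, an exercise protocol, the time between exercise and sampling, nor the muscle taken. Exercise and SQH both differ between the 2 groups, so their shares in a difference cannot be told apart.

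Each group had 1 library, and the labels do not say how many mice it holds. No replicate error and no p-value exist for any difference here, and every statement describes 2 libraries. A gene was called higher or lower where its log2 levels differed by at least 1, which is 2-fold. The figure after ± estimates the error of counting reads, as a standard error on the log2 scale, and covers neither mice nor library preparation. Depth, estimated from the spacing of low values, was about 10800000 reads in the control, 8120000 with exercise alone and 12400000 with SQH. Markers of muscle fibres, among them Ckm, Acta1, Ttn and Mb, were tested in full (10 of 10) and none was called, with a median difference of -0.11. No marker of neutrophils or lymphocytes reached the expression minimum, and 11 of 15 lymphocyte markers were at 0 in the control library and 11 of 15 with SQH. Of 9 skin markers 7 were at 0 in each of these libraries, and Krt10 alone was tested, at 6.64 in the control and 6.67 with SQH.

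Working muscle releases calcium, burns glycogen and fatty acids, and raises cyclic AMP and AMP. These signals act on calcium-dependent enzymes, AMP-activated kinase and the factor CREB, and switch on early genes within the hours after exercise. Among the known targets are the NR4A orphan nuclear receptors, the coactivator PGC-1alpha and the kinase PDK4, which steers muscle from glucose towards fat as fuel. Metallothioneins, the stretch-sensitive ankyrin repeat proteins and the atrophy ubiquitin ligases also respond to hard or damaging exercise and to stress hormones.

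The 2 libraries were close for most genes. The median difference over the tested rows was -0.02, the middle 50% of rows lay between -0.26 and 0.24, and 48.7% lay above 0. In all, 138 rows (1.76%) were called higher with SQH and 99 rows (1.26%) lower, 237 rows (3.02%) together. The lowest 1965 rows by mean level held 115 of these calls (5.85% of those rows) and the highest 1964 held 30 (1.53%). Counting error alone was larger in the former, with a median standard error of 0.19 against 0.05. In whole tissue, fewer cells of a type and less RNA per cell cannot be told apart.

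**Figure D1:**
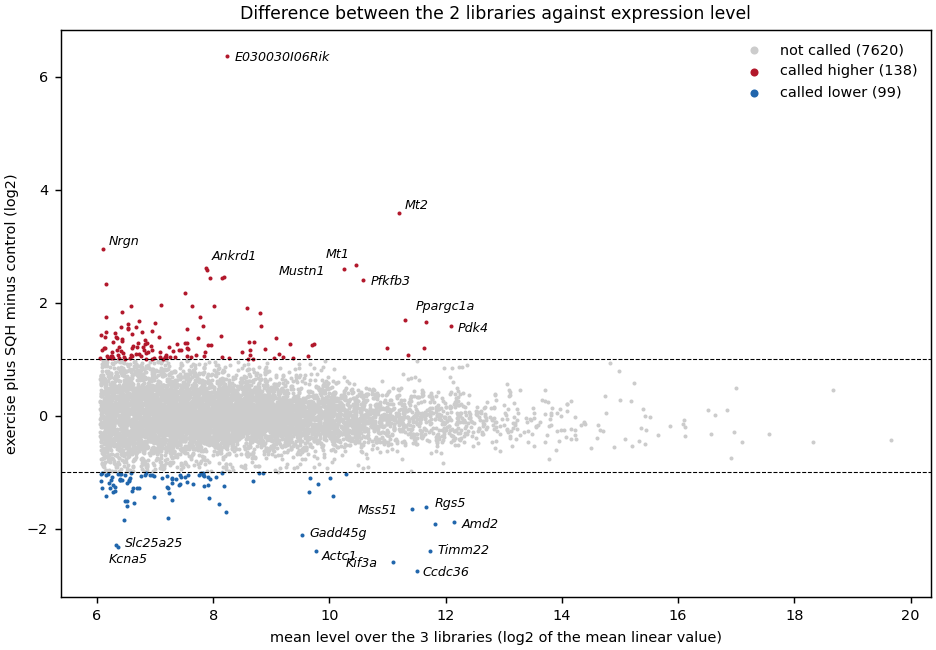
Difference in log2 level between the exercise plus SQH and control libraries (vertical axis) against the log2 mean linear value over the 3 libraries (horizontal axis), 1 point per tested gene row. Dashed lines mark a difference of 1 in either direction; 138 red points lie above and 99 blue points below, and the highest point is E030030I06Rik at 6.37.

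Of the 15 higher genes with the widest gap, Mt2 and Mt1 encode metallothioneins, Nr4a3, Runx1, Maff and Atf3 encode transcription factors, and Ankrd1 and Mybph encode sarcomere-associated proteins. The list is completed by Pfkfb3, a regulator of glycolysis, and by Nrgn, Mustn1, Adora1, Sv2b, Eda2r and Natd1. Nrgn, the gene of the calmodulin-binding protein neurogranin, stood at 4.30 in the control, 5.11 with exercise alone and 7.25 with SQH (2.95 ± 0.33). Nrgn passed the expression minimum only through the SQH library. Mustn1, a small nuclear protein gene of muscle and skeleton, stood at 8.45, 10.21 and 11.04 in the same order (2.59 ± 0.08). Sv2b, which encodes a synaptic vesicle glycoprotein, stood at 6.68, 6.34 and 9.11 (2.44 ± 0.15). For Nrgn and Sv2b the SQH library was far above both other libraries, whereas the exercise control shared the greater part of the Mustn1 difference.

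The 15 lower genes with the widest gap included Ccdc36, Kif3a and Timm22, which stood high in the control library. Ccdc36 read 12.62 in the control, 10.56 with exercise alone and 9.86 with SQH (-2.75 ± 0.04). Kif3a, a kinesin motor gene, read 12.14, 10.32 and 9.56 (-2.59 ± 0.05), and Timm22, a carrier translocase gene of the mitochondrial inner membrane, read 12.74, 11.00 and 10.35 (-2.39 ± 0.04). These 3 rows ran in parallel over the libraries although their genes lie on chromosomes 9 and 11. None of them shares exonic bases with another annotated gene. Their sequences were not compared, so whether the 3 rows are separate signals was not tested. Actc1, the cardiac alpha-actin gene that is also active in immature muscle fibres, stood at 11.00 in the control, 7.52 with exercise alone and 8.61 with SQH (-2.39 ± 0.07). Gdap1 (-1.84 ± 0.23), a gene of mitochondrial fission, and Taco1 (-1.60 ± 0.22), an activator of mitochondrial cytochrome oxidase translation, were lower as well.

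**Figure D2:**
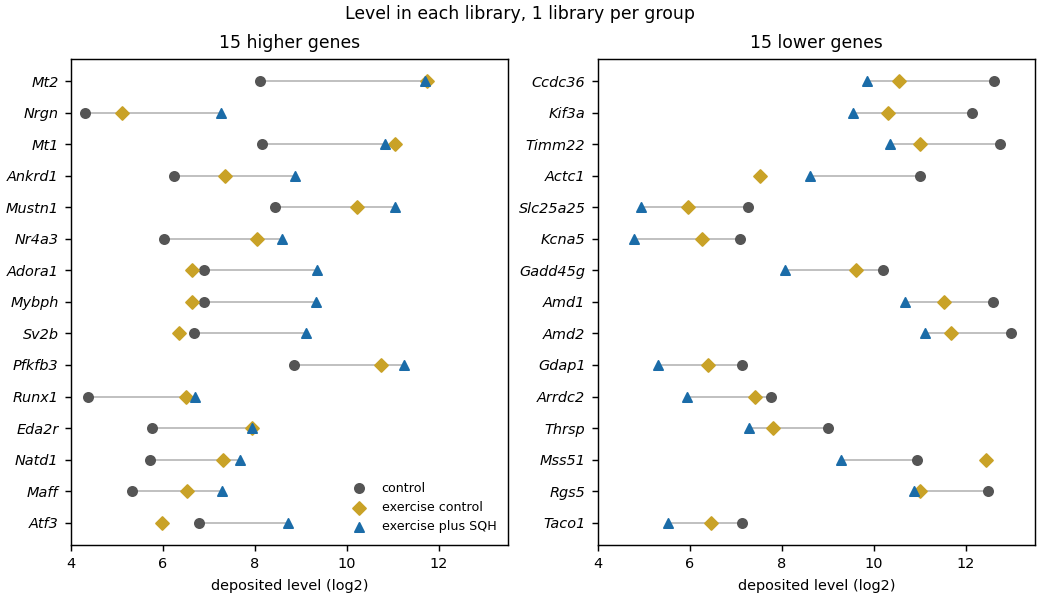
Deposited log2 level (horizontal axis) of the 15 named genes with the largest positive difference (left) and the 15 with the largest negative difference (right), with circles for control, diamonds for exercise control and triangles for exercise plus SQH, 1 library each. The line joins the control and SQH levels; Mt2 goes from 8.10 to 11.70 and Ccdc36 from 12.62 to 9.86.

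Metallothioneins bind zinc and other metals through many cysteines, and their genes are switched on by the zinc-sensing factor MTF1 and by glucocorticoids. Mt2 stood at 8.10 in the control and 11.70 with SQH, a 12.1-fold difference (3.60 ± 0.09), and at 11.74 with exercise alone. Mt1 stood at 8.16 and 10.83, a 6.34-fold difference (2.66 ± 0.09), and at 11.05 with exercise alone. The control library was thus low for both genes and the exercised libraries were close to each other. Both lie on chromosome 8 of GRCm38 with 5513 bases between them, Mt2 at chr8:94172664-94173568 and Mt1 at chr8:94179082-94180327, on the plus strand. Mt3 and Mt4, in the same cluster, were listed at 0 in the control and exercise control and at 1.70 and 2.35 with SQH, below the minimum. Mtf1 itself read 8.86, 8.80 and 9.16 in the order control, exercise alone, SQH (0.30 ± 0.08). Of the 23 genes for metallothioneins and zinc handling, 13 were tested and 3 called higher (1.76% of all rows were). The other called gene was Slc39a13, a zinc transporter of the Golgi, at 6.21 in the control and 7.38 with SQH (1.17 ± 0.19). The zinc exporter gene Slc30a1, a classical MTF1 target, read 7.87 in the control and 7.76 with SQH (-0.12 ± 0.13). The list median was -0.19, but 0.15 over 19 genes with no expression minimum, so its direction depended on that minimum.

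The 250 bases before the RefSeq start of Mt1 and Mt2 are shown because both neighbours were called higher, and matches to the core of the metal response element (TGCGCNC or TGCACNC, either strand) are in capitals. Both are read 5′ to 3′ on the plus strand of GRCm38.p6, from chr8:94178839-94179088 for Mt1 and chr8:94172368-94172617 for Mt2.
Mt1: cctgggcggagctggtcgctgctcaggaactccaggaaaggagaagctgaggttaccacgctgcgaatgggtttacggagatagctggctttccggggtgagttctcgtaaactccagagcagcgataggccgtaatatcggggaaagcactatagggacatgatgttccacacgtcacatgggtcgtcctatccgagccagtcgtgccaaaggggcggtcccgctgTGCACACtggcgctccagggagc
Mt2: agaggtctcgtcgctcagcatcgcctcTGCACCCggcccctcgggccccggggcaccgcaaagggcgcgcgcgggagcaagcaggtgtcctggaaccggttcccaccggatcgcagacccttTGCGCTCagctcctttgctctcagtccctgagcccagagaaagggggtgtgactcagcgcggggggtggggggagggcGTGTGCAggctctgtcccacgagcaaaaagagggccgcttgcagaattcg
Over the whole 300-base window that runs on past the start, Mt1 held 3 matches and Mt2 held 4. At least 3 matches were found in 1.97% of all 32851 promoter windows of that length and in 3.51% of the windows of tested genes, and at least 1 in 25.7% and 36.5%. A match describes letters, not a bound site.

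The NR4A receptors are nuclear receptors without a known natural ligand, induced in muscle by adrenergic and calcium signals. Nr4a3 stood at 6.02 in the control, 8.04 with exercise alone and 8.598 with SQH, a 5.98-fold difference from the control (2.58 ± 0.19). Nr4a2 stood at 5.19, 6.72 and 6.50 (1.30 ± 0.27). Nr4a1, the most abundant of the 3 in the control, read 9.08, 8.01 and 8.61 (-0.48 ± 0.09). So 2 of the 3 receptors were called higher and the third lay below the control, in both exercised libraries. Nr4a2 reached the expression minimum only through the library of exercise alone, and its call is absent when the minimum is set without it. The 250 bases before the starts of the called receptors are given next, with the short core of the cyclic AMP response element (TGACG, either strand) in capitals. Nr4a3 is read on the plus strand from chr4:48045055-48045304 and Nr4a2 on the minus strand from chr2:57124004-57124253, both 5′ to 3′ in GRCm38.p6 of RefSeq.
Nr4a3: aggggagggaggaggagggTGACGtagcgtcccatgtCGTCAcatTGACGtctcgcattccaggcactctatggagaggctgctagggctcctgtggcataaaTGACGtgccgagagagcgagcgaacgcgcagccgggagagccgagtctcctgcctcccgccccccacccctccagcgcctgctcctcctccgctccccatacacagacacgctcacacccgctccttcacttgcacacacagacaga
Nr4a2: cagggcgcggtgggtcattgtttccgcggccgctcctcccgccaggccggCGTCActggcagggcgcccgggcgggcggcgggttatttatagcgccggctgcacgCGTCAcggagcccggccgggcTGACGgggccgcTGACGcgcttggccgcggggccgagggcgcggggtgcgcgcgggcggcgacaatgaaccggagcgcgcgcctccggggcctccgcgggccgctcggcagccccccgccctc
Each of these windows held 4 such cores, and so did that of Nr4a1, which was not called. At least 4 were found in 0.231% of all promoter windows of 300 bases and in 0.667% of the windows of tested genes.

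Immediate early genes, which cells transcribe within minutes of a stimulus without new protein synthesis, lay mostly above the control. Of 36 genes, 26 were tested, 19 lay above 0 and 4 were called higher, with none called lower. Over all rows 48.7% lay above 0, 1.76% were called higher and 1.26% lower. The list median was 0.12 against -0.02 for all rows. Maff, a small Maf partner of stress-responsive factors, stood at 5.33 in the control, 6.51 with exercise alone and 7.28 with SQH (1.95 ± 0.24). Atf3, a stress-induced repressor, stood at 6.78, 5.98 and 8.72 (1.94 ± 0.15), so only the SQH library was high. Crem (1.06 ± 0.20), which encodes the cyclic AMP modulator ICER among other forms, and Fos (1.02 ± 0.24) were just past the threshold. Fos passed the expression minimum only through the SQH library. Sik1, a CREB-induced kinase, read 7.24, 6.82 and 8.22 (0.98 ± 0.14), and Klf10 read 6.69, 8.002 and 7.66 (0.96 ± 0.16), both just short of it. Egr1 read 7.67 in the control and 8.47 with SQH (0.80 ± 0.12), while Junb read 7.97 and 7.79 (-0.18 ± 0.12).

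Ppargc1a, the gene of PGC-1alpha, was the only one of 18 tested genes of mitochondrial biogenesis to be called. It read 10.75 in the control, 11.35 with exercise alone and 12.41 with SQH, a 3.14-fold difference (1.65 ± 0.04). Its paralogs did not share this. Ppargc1b read 9.44 in the control and 9.56 with SQH (0.12 ± 0.07), and Pprc1 read 6.91 and 6.45 (-0.46 ± 0.19). The factors that work with the coactivator were near the control, with Esrra at 9.49 and 9.75 (0.26 ± 0.07) and Tfam, which packages mitochondrial DNA, at 7.87 and 7.88 (0.01 ± 0.12). The list median was -0.10, with 7 genes above 0 and 11 below.

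Enzymes that choose between fuels gave single large differences in lists that otherwise stayed near 0. Pdk4, whose kinase shuts pyruvate dehydrogenase, stood at 11.42 in the control, 11.04 with exercise alone and 13.00 with SQH, a 2.99-fold difference (1.58 ± 0.03). The other 11 tested genes of the pyruvate dehydrogenase list were not called, and Pdk1 (-0.01 ± 0.09) and Pdk2 (0.02 ± 0.04) were level with the control. The phosphatase genes Pdp1 (0.47 ± 0.05) and Pdp2 (0.45 ± 0.22) and the subunit gene Pdha1 (-0.40 ± 0.03) differed less. Pfkfb3, whose enzyme makes fructose 2,6-bisphosphate, stood at 8.84, 10.73 and 11.24 (2.40 ± 0.07), and was the only call among 23 tested glycolysis genes. Its relatives Pfkfb1 (0.32 ± 0.12), Pfkfb2 (-0.27 ± 0.21) and Pfkfb4 (0.05 ± 0.14) were not called. Hk2, the muscle hexokinase that exercise is known to induce, read 13.03 and 13.48 (0.45 ± 0.02). The list medians were 0.05 for glycolysis and 0.01 for both the glycogen and pyruvate dehydrogenase lists, and no glycogen gene of 17 was called.

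Genes of AMP-activated kinase and glucose transport had 2 higher and 1 lower call among 20, against 1.76% and 1.26% of all rows. Rrad, a small GTPase gene of muscle that restrains calcium channels, stood at 8.53 in the control, 8.23 with exercise alone and 9.91 with SQH (1.38 ± 0.08). Tbc1d1, a target of the kinase in glucose transporter traffic, stood at 7.36, 9.25 and 8.67 (1.31 ± 0.13). Arrdc2, an alpha-arrestin gene, was lower, at 7.75, 7.42 and 5.94 (-1.81 ± 0.19). The glucose transporter gene Slc2a4 (GLUT4) read 12.70 and 12.55 (-0.15 ± 0.02) and Txnip read 13.04 and 13.41 (0.37 ± 0.02).

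Genes of fat oxidation gave 1 call, and those of fat and sterol synthesis gave calls in both directions. Over all rows 1.76% were called higher and 1.26% lower. Of 33 tested genes of fatty acid uptake and oxidation only Acsl6, an acyl-CoA synthetase gene, was called, at 6.60 in the control and 7.66 with SQH (1.07 ± 0.17). Its difference was 0.996 with a pseudocount of 10, just short of the threshold. Of 29 tested PPAR target and lipid droplet genes, 20 lay above 0 and Pdk4 alone was called. Plin2, a coat protein of lipid droplets, read 7.51 and 8.36 (0.85 ± 0.12). In the lipogenic and sterol list of 21 tested genes, Thrsp, a gene that follows fatty acid synthesis, was lower at 9.01, 7.80 and 7.29 in the order control, exercise alone, SQH (-1.71 ± 0.12). In the sterol branch Sc5d was lower (-1.49 ± 0.19) and Fdft1, squalene synthase, higher (1.06 ± 0.13). Scd1, the stearoyl-CoA desaturase gene, read 7.52 and 8.44 (0.92 ± 0.12). Fdft1 shares 774 exonic bases with Ctsb on the opposite strand, which differed by 0.10.

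Mitochondrial enzymes as groups were level between the 2 libraries. The 24 tested tricarboxylic acid cycle genes had a median of -0.01 and no call, although Sdhd, a succinate dehydrogenase gene, read 9.69 in the control and 10.60 with SQH against 5.87 with exercise alone. The 37 of respiratory complex I had a median of -0.06 and no call. Of 38 genes of complexes III to V, 25 lay above 0 and Atp5g1, a gene of the rotor ring of ATP synthase, was called (1.08 ± 0.04). The exercise control library read 11.53 for it, close to the 11.70 of SQH and above the 10.62 of the control. Of 19 tested genes of uncoupling and mitochondrial carriers, 1 was called in each direction, against 1.76% higher and 1.26% lower of all rows. Slc25a25, a calcium-sensitive ATP-magnesium and phosphate carrier gene, stood at 7.27, 5.95 and 4.94 in the order control, exercise alone, SQH (-2.33 ± 0.25). Slc25a29, a carrier of basic amino acids, stood at 5.16, 7.99 and 6.32 (1.17 ± 0.27), and passed the expression minimum only through the library of exercise alone. Slc25a25 passed the minimum only through the control library. Slc25a25 shares 379 exonic bases with Naif1 on the opposite strand, which differed by -0.56.

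Sarcomere genes mostly stayed inside the threshold. None of 10 tested myosin heavy chain genes was called, but the 2 fastest forms went opposite ways. Myh1, of type IIX fibres, read 14.20 in the control, 14.99 with exercise alone and 15.14 with SQH (0.94 ± 0.01). Myh4, of type IIB fibres, read 16.93, 17.35 and 16.19 (-0.74 ± 0.01). Myh2 (-0.25 ± 0.01), Myh7 (-0.34 ± 0.01) and the neonatal Myh8 (-0.27 ± 0.04) lay below the control, and the embryonic Myh3 above it (0.18 ± 0.11). Of 17 slow-fibre genes 14 lay below 0, with a median of -0.32, and of 18 fast-fibre genes 13 did, with a median of -0.27, while no gene of either list was called. Quantile normalization brought the fast-fibre median to -0.16. Myl6b, a light chain gene of the slow list, read 9.42 in the control and 8.50 with SQH (-0.92 ± 0.09), and the slow troponin gene Tnni1 read 14.17 and 13.70 (-0.47 ± 0.02). Both were far lower with exercise alone, at 6.06 and 10.11. Acta1, the main actin of muscle, read 18.56 and 19.01 (0.45). In the list of sarcomere scaffold genes, 19 of 38 lay above 0 and Mybph alone was called.

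Mybph, of the myosin-binding protein H, and Adora1, of the adenosine A1 receptor, had nearly the same values. Mybph read 6.89, 6.62 and 9.32 in the order control, exercise alone, SQH (2.44 ± 0.14), and Adora1 read 6.90, 6.62 and 9.35 (2.45 ± 0.14). In GENCODE M21 the genes overlap tail to tail on opposite strands (Mybph at chr1:134193448-134201232, Adora1 at chr1:134199223-134235431) and share 1162 exonic bases. The largest gap between them in a library was 0.02, so their reads cannot be told apart and they count as 1 signal. The same holds for Myo1h (1.53 ± 0.23) and Kctd10 (1.56 ± 0.23) on chromosome 5, which share 1530 exonic bases. Amd1 and Amd2, described below, have transcripts that are 99.6% identical over 3202 bases. Mt2, Runx1, Gadd45a, Gabarapl1, Igf2, Slc39a13, Crem, Taco1, Sv2b, Dio2, Cdkn1c, Nt5c2, Acsl6, Rrad, Glul, Sult1a1, Lox, Dnajb9 and E030030I06Rik also share exonic bases with another annotated gene, and since the use of strand is unknown their reads may include that partner's.

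The sodium pump and channel list gave lower calls only, and the calcium list gave none. Kcna5, a voltage-gated potassium channel gene, was lower at 7.09 in the control, 6.27 with exercise alone and 4.79 with SQH (-2.30 ± 0.27), and Kcna7, a related muscle channel, at 8.73, 8.09 and 7.49 (-1.24 ± 0.12). They were the 2 calls among 23 tested genes of the sodium pump and channel list, against 1.26% of all rows called lower. The list median was 0.09. Kcnj2, an inward rectifier potassium channel gene, read 9.50 and 10.14 (0.64 ± 0.06). None of 34 genes of calcium release and the triad was called. Sln, of the calcium pump inhibitor sarcolipin, had the lowest value in that list, at 11.43 and 10.56 (-0.87 ± 0.04), and Cacng1, a calcium channel subunit gene, the highest (0.69).

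Genes that respond to stretch and to loss of nerve supply had list medians above that of all rows. In the stretch and YAP list, 14 of 19 tested genes lay above 0 and 2 were called higher, with a median of 0.25. Of all rows 48.7% lay above 0 and 1.76% were called higher. Ankrd1, of a stretch-sensitive ankyrin repeat protein of the I-band, stood at 6.25 in the control, 7.36 with exercise alone and 8.87 with SQH, 6.16-fold above the control (2.62 ± 0.17). Ctgf, of connective tissue growth factor, stood at 10.66, 9.55 and 12.36 (1.69 ± 0.04), so the exercise control was the lowest library and SQH the highest. Xirp1 (0.84 ± 0.07) and Csrp3 (0.69 ± 0.03), other genes of strained fibres, and Cyr61 (0.36 ± 0.05) lay above the control without being called.

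In the acetylcholine receptor and denervation list, 3 of 13 tested genes were called higher and none lower, against 1.76% and 1.26% of all rows, with a median of 0.34. The median was 0.19 over 12 genes with a minimum set without the library of exercise alone, through which Runx1 alone of the called genes had passed, and 0.21 with no minimum. Runx1, a transcription factor gene that denervated fibres express, stood at 4.37 in the control, 6.49 with exercise alone and 6.69 with SQH (2.33 ± 0.33). Gadd45a stood at 6.99, 8.32 and 8.24 (1.25 ± 0.14). Musk, the receptor kinase of the neuromuscular junction, stood at 6.69, 7.18 and 7.73 (1.04 ± 0.16), and its coreceptor gene Lrp4 at 6.75, 5.86 and 7.59 (0.84 ± 0.16). For Runx1 and Gadd45a the exercised libraries were alike, and for Musk and Lrp4 the SQH library was the highest. Of 16 tested myogenic genes, Myf6 (1.16 ± 0.16) and the satellite cell cadherin gene Cdh15 (1.49 ± 0.25) were called higher, against 1.76% of all rows. Cdh15 passed the expression minimum only through the SQH library. Myog read 9.11 and 9.83 (0.72 ± 0.07), and Pax7, of satellite cells, read 6.74 and 6.34 (-0.40). The median of those 16 genes was -0.05.

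**Figure D3:**
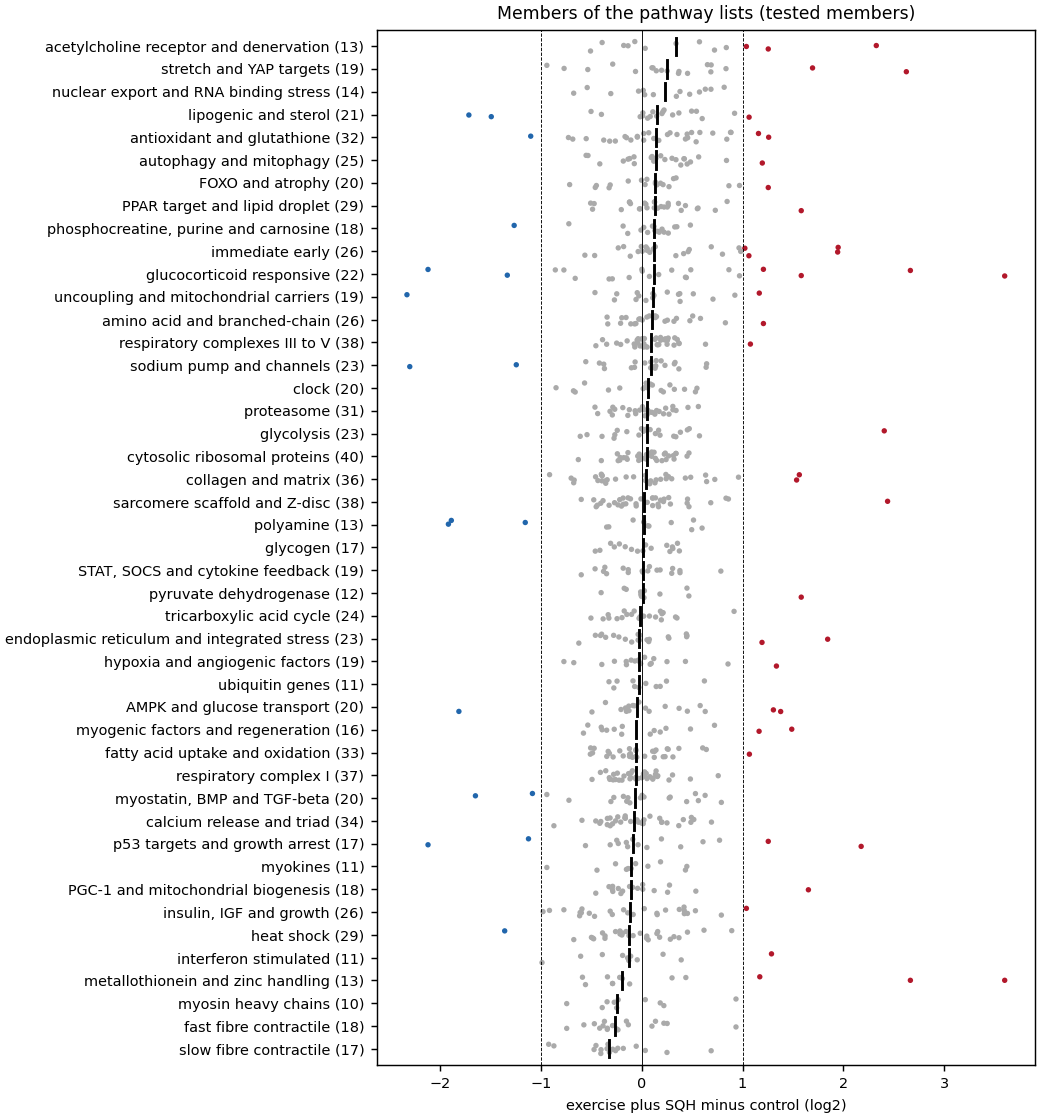
Difference in log2 level, exercise plus SQH minus control (horizontal axis), of each tested gene of 45 of the 46 pathway lists, without the NR4A receptors, whose 3 values are given in the text (number of tested genes in brackets), with a black bar at the list median. Red points were called higher, blue points lower and grey points neither; the medians drawn run from -0.32 for slow-fibre genes to 0.34 for the acetylcholine receptor and denervation list.

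Stress genes gave calls in both directions. Of 29 tested heat shock genes only Hspa2 was called, and it was lower (-1.36 ± 0.23), against 1.26% of all rows. Hspb1, a small heat shock protein gene, read 11.93 and 12.82 (0.89 ± 0.03) and the inducible Hspa1a read 7.86 and 8.48 (0.62 ± 0.11), and 5.30 with exercise alone. In the endoplasmic reticulum and integrated stress list 2 of 23 genes were called higher, against 1.76% of all rows. Dnajb9, a chaperone partner of the lumen, stood at 5.49, 5.68 and 7.34 in the order control, exercise alone, SQH (1.84 ± 0.23). Dnajb9 passed the expression minimum only through the SQH library. Chac1, which degrades glutathione, stood at 5.84, 8.55 and 7.03 (1.19 ± 0.22). The central chaperone gene Hspa5 was not among the calls, at 12.74 and 12.28 (-0.46), and the list median was -0.02.

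The antioxidant and glutathione list had 32 tested genes, of which 20 lay above 0, with a median of 0.15. In it 2 were called higher and 1 lower, against 1.76% and 1.26% of all rows. Srxn1, sulfiredoxin, stood at 9.08, 9.35 and 10.34 (1.26 ± 0.07), and Mgst3, a membrane glutathione transferase gene, at 8.20, 7.94 and 9.36 (1.16 ± 0.10). Nqo1, a quinone reductase gene, was lower at 7.50, 7.25 and 6.40 (-1.10 ± 0.17). Srxn1 and Nqo1 are both classical targets of the factor NRF2, and they went opposite ways. Gpx1 read 9.26 and 10.11 (0.84 ± 0.07).

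Genes of growth arrest split as well. Eda2r, a receptor gene of the tumour necrosis factor family, stood at 5.77 in the control, 7.94 with exercise alone and 7.94 with SQH (2.18 ± 0.21). Gadd45g stood at 10.19, 9.61 and 8.08 (-2.12 ± 0.09), in the opposite direction to Gadd45a, and Gadd45b read 6.42 and 6.80 (0.39 ± 0.19). Cdkn1c was lower (-1.12 ± 0.15) and Cdkn1a read 8.37 and 9.14 (0.77 ± 0.09). Of 17 tested p53 target and growth arrest genes, 2 were called in each direction, against 1.76% higher and 1.26% lower of all rows. In the hypoxia and angiogenic list only Apold1, an early gene of vessel walls, was called among 19 genes, at 6.25 in the control and 7.59 with SQH (1.34 ± 0.18).

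Most genes of protein breakdown lay above the control, with 1 call in each of the atrophy and autophagy lists. The ubiquitin ligase genes of muscle atrophy, Trim63 (MuRF1) and Fbxo32 (atrogin-1), read 10.75 and 11.65 in the control, 11.81 and 12.54 with exercise alone and 11.72 and 12.51 with SQH. Their differences from the control were 0.97 ± 0.04 and 0.86 ± 0.03, short of the threshold, though Trim63 reached 1.002 after quantile normalization. Gadd45a was the 1 call among 20 tested genes of that list. Gabarapl1, an autophagosome protein gene, stood at 10.25, 11.05 and 11.44 (1.20 ± 0.05) and was the 1 call among 25 autophagy genes, of which 17 lay above 0. Map1lc3a followed at 11.50, 11.94 and 12.35 (0.84 ± 0.03). The 31 proteasome genes had a median of 0.05 and no call, and the 40 cytosolic ribosomal protein genes a median of 0.05 and no call. No call was made among 11 ubiquitin genes or 14 genes of RNA binding, where Hnrnpa1 was highest (0.82).

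Of 22 tested glucocorticoid-responsive genes 4 were called higher and 2 lower, against 1.76% and 1.26% of all rows. Besides the metallothioneins and Pdk4, Glul, glutamine synthetase, was higher, at 10.60 in the control, 12.08 with exercise alone and 11.80 with SQH (1.21 ± 0.04). The lower ones were Gadd45g and Sult1a1, a sulfotransferase gene, at 7.02, 5.87 and 5.69 (-1.33 ± 0.21). Sult1a1 passed the expression minimum only through the control library. The list median was 0.12.

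Among growth signals, 2 of 20 tested genes of the myostatin list were called lower and none higher, against 1.26% and 1.76% of all rows. The median of that list was -0.06, with 9 genes above 0 and 11 below. Mss51, a mitochondrial protein gene of fast fibres that myostatin is known to regulate, stood at 10.95 in the control, 12.45 with exercise alone and 9.30 with SQH (-1.65 ± 0.06). Mstn, of myostatin, a brake on muscle growth, read 8.21, 8.80 and 7.27 (-0.94 ± 0.13). For both genes the exercise control was the highest library and SQH the lowest. Smad1, of the bone morphogenetic protein pathway, was lower (-1.08 ± 0.15). In the insulin and IGF list of 26 tested genes only Igf2 was called (1.04 ± 0.16), and it was 0.97 with a pseudocount of 10. Igfbp5 read 11.85 and 10.87 (-0.98 ± 0.04). No gene of the STAT and SOCS list (19 tested) or of the myokine list (11 tested) was called; Socs6 (0.78) and Metrnl (0.45) were highest there. Of 11 tested interferon-stimulated genes Ifit3 was higher (1.29 ± 0.26) and 8 lay below 0.

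Polyamine genes included 3 lower calls among 13 tested (1.26% of all rows were lower) and no higher one, and their median was 0.02, or -0.21 over the 10 genes above the upper quartile. Amd1 and Amd2, which encode the S-adenosylmethionine decarboxylase that supplies aminopropyl groups, stood at 12.60 and 12.99 in the control, 11.54 and 11.68 with exercise alone and 10.69 and 11.11 with SQH. Their differences were -1.92 ± 0.04 and -1.89 ± 0.03, and because of their identity they are 1 signal. Smox, spermine oxidase, stood at 8.97, 8.97 and 7.82 (-1.15 ± 0.10). Odc1, the first enzyme of the pathway, was level at 7.90 and 7.97 (0.07 ± 0.12), and Sat1, which acetylates spermine and spermidine, read 8.39 and 8.99 (0.60 ± 0.09). Of the nucleotide and phosphocreatine genes only Nt5c2, a cytosolic nucleotidase, was called, and it was lower (-1.26 ± 0.16). Ckm, creatine kinase of muscle, read 16.59 and 17.08 (0.48 ± 0.01).

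None of 20 tested clock genes was called. Dbp, an output gene of the clock, had the lowest value, at 8.95 in the control, 7.03 with exercise alone and 8.10 with SQH (-0.85 ± 0.10), and Per1 read 9.06, 8.13 and 8.40 (-0.66 ± 0.09). The core activator gene Arntl read 6.58 and 5.91 (-0.68 ± 0.22). The labels do not state the time of day of sampling.

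Most tested tendon markers stood above the control. Of 12 markers 7 passed the expression minimum and 5 of these were called higher, against 1.76% of all rows. Tnmd, tenomodulin, stood at 4.86 in the control, 6.45 with exercise alone and 6.61 with SQH (1.74 ± 0.29). Cilp stood at 6.96, 7.47 and 8.55 (1.59 ± 0.14), Fmod at 6.54, 8.03 and 7.73 (1.19 ± 0.17), Cilp2 at 7.91, 9.32 and 9.10 (1.19 ± 0.11) and Kera at 5.77, 6.72 and 6.78 (1.01 ± 0.22). Scx, a transcription factor gene of tendon cells, read 8.17, 6.99 and 7.57 (-0.60 ± 0.12), below the control in both exercised libraries, and Thbs4, a matrix gene of tendon, read 8.16, 9.14 and 8.24 (0.08 ± 0.11). Tnmd passed the expression minimum only through the library of exercise alone. The median of the tested markers, 1.19, was 1.01 with a minimum set without that library and 0.63 over the 2 markers above the upper quartile. The summed linear level of the 12 markers was 1242 in the control, 2176 with exercise alone and 2138 with SQH. The matrix genes called with them were Postn (1.56 ± 0.22) and Lox (1.54 ± 0.18), whereas the median of 36 tested collagen and matrix genes was 0.04. Postn passed the expression minimum only through the SQH library. The part of tendon in these differences was not tested.

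Each other cell type had at most 1 called marker, against 1.76% of all rows called higher and 1.26% lower. Endothelial markers had a median of 0.01 over 12 tested genes with Sox18 called higher (1.32), fibroblast markers 0.02 over 10 with no call, and Schwann and nerve markers 0.03 over 6 with no call. Sox18 read 6.19 in the control and 7.52 with SQH, but 0.31 with exercise alone, which corresponds to about 1 read. Satellite cell markers had a median of -0.22 over 5 with Cdh15 called higher, pericyte and smooth muscle markers -0.25 over 11, erythroid markers -0.21 over 4 and adipocyte markers 0.26 over 5. The satellite cell median rested on few genes, being 0.13 with no minimum and 0.42 at the upper quartile, and the pericyte median was 0.09 at the upper quartile. The myelin gene Mbp read 6.78 in the control, 6.83 with SQH and 8.63 with exercise alone. The library of exercise alone was the one that stood apart for this gene, not the 2 libraries compared here. Rgs5, a pericyte gene that damps G protein signals, was lower at 12.50, 11.01 and 10.88 (-1.62 ± 0.03), while the other 10 tested pericyte and smooth muscle markers were not called. Cfd, of adipocytes, was higher (1.22 ± 0.19), and 7 of 12 adipocyte markers were below the minimum. All 4 tested erythroid markers lay below the control, from Hba-a1 at -0.04 to Alas2 at -0.41, and the macrophage gene C1qa read 7.51 and 8.28 (0.77 ± 0.13).

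**Figure D4:**
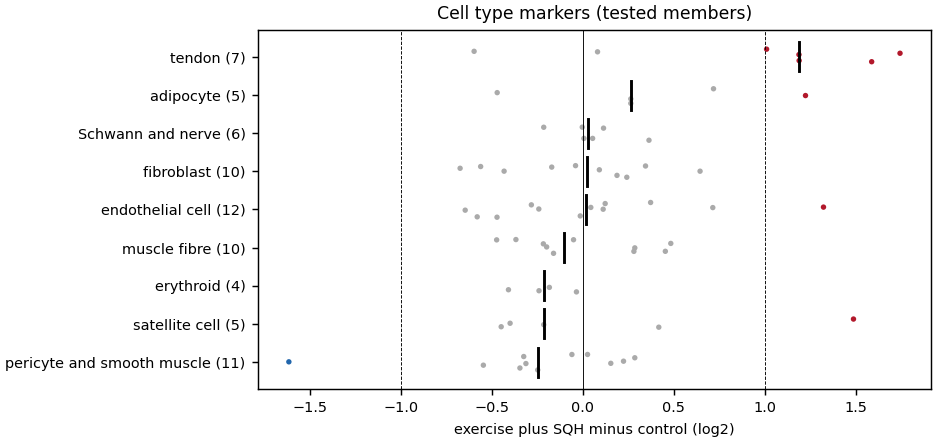
Difference in log2 level, exercise plus SQH minus control (horizontal axis), of each tested marker of 9 cell types (number of tested markers in brackets), with a black bar at the median. Tendon markers have the highest median, 1.19 over 7 tested markers, and the other medians lie between -0.25 and 0.26.

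Several called genes outside the lists were singled out after their values were seen. Hbegf, of an epidermal growth factor family ligand, stood at 7.70 in the control, 8.66 with exercise alone and 9.52 with SQH (1.81 ± 0.11), and Rgs2, a regulator of G protein signalling that cyclic AMP induces, at 6.79, 7.47 and 8.53 (1.74 ± 0.15). Dio2, which activates thyroid hormone and is also induced by cyclic AMP, stood at 6.43, 7.18 and 7.47 (1.03 ± 0.18). Nfatc1, a calcineurin-dependent factor gene of active fibres, stood at 8.42, 9.48 and 9.47 (1.04 ± 0.09). For these 4 genes both exercised libraries lay above the control. Other called genes outside the lists, such as Slc38a1 and Ip6k3, were higher with SQH but lower with exercise alone than in the control. Among the lower genes, Homer1, a scaffold of calcium signalling, stood at 10.35, 9.70 and 9.13 (-1.22 ± 0.07). The widest difference of all rows was that of E030030I06Rik, a gene known by a clone name, at 0.89 in the control, 9.55 with exercise alone and 7.27 with SQH. Its control value corresponds to about 2 reads, and its counting error is 1.03.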

How the data were processed

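RNA of skeletal muscle was extracted with Trizol, and 500 ng per sample entered Lexogen QuantSeq libraries, which read the 3' end of transcripts, per the labels' protocols. Bowtie2, edgeR and mm10, a mouse build, appear in the submitters' processing notes. Their roles, the read counter and the use of strand are, in the sources used here, not given. The deposited values are log2 levels, 1 file per library, and their unit was inferred from the values. Low linear values bunch at multiples of 1 step per library (0.939 in the control, 1.19 with exercise alone, 0.766 with SQH); 100%, 95.7% and 84.4% of linear values up to 9 lay within 0.2 step of one. Linear sums divided by the step gave approximate reads. Because the bunches are wide, reads are approximate and a count model was not used. Counting errors are those of a ratio of 2 Poisson counts.

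Groups came from sample titles. The log2 value of the control was subtracted from that of exercise plus SQH on the deposited scale, and the size rule was tested on simulated data. Python 3.11.15, numpy 2.4.6 and pandas 2.3.3 were used. Of 59 lists (46 pathways, 13 cell types; 1283 genes, 1266 found, 981 tested), 57 had a tested member; lists and members were chosen with earlier results of these data known. Named were the 15 higher and 15 lower genes with the largest difference, and per list up to 4 called members, or up to 2 members where fewer were called. Members of the metallothionein, myosin heavy chain, pyruvate dehydrogenase and NR4A lists could all be named; further list members were named after their values were seen. Clone-named genes, pseudogenes, small RNA genes and the 43 symbols on several rows were counted, not named. Positions and exon overlaps are from GENCODE M21 for GRCm38, in which 229 of 237 called symbols were found; 81 of the called genes share exonic bases with another gene. Promoter windows are RefSeq's for GRCm38.p6, and blastn 2.17.0 compared Amd1 with Amd2. A few genes are not reported here. Results under other scalings, expression minimums, a pseudocount and a stricter threshold were computed.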

Additional observations from a re-analysis of the deposited data

Results flagged for a closer look

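Prss22, a serine protease gene, was listed at 0 both in the control and in the exercise plus SQH library and at 11.109 in the library of exercise alone. It drew attention because that library lies outside the comparison and is the only one with a signal for the gene, and the row passed the expression minimum through it.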

How the results depend on the processing

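The counts of called genes depended on the expression minimum and the threshold. With no minimum 1015 genes were higher and 837 lower, with a minimum at the upper quartile 36 and 22, and with a threshold of 1.5 on the log2 scale 36 and 19. The other settings stayed within 1.5 times of 138 and 99: centring gave 138 and 99, quantile normalization 129 and 112, a minimum without the exercise control library 138 and 105, while a pseudocount of 10 gave 100 and 74 and, as an alternative chosen after seeing the data, genes without exonic overlap gave 109 and 77. Of the 72 genes past the threshold that the naming rule picked, none changed direction under the scalings, minimums and pseudocount that left it a value. Among those 72, a pseudocount of 10 took Acsl6 (0.996), Crem (0.96), Fos (0.89), Igf2 (0.97), Musk (0.97) and Slc25a29 (0.98) below the threshold. Quantile normalization took Fos (0.96) below it and put Trim63 (1.002) and Rsad2 (-1.05) past it. Called genes named beyond the rule, among them Kera (1.01), Dio2 (1.03), Sult1a1 and Nfatc1, were not checked 1 by 1 under these settings. Of 57 list medians, 12 moved by more than 0.1 with no minimum, 11 at the upper quartile, 3 with the minimum without the exercise control library, 2 under quantile normalization and 1 with the pseudocount. Further medians near 0 changed sign, that of the myogenic list to 0.11 with no minimum, the collagen and matrix list to -0.17 and the fibroblast list to -0.12 at the upper quartile, and the endothelial list to -0.10 with no minimum; the NR4A median was -0.48 over the 1 gene above the upper quartile. Runx1, Slc25a29, Tnmd and Nr4a2 fell below the minimum set without the exercise control library. No paired analysis was possible because each group has 1 library. At the lowest levels, with a median counting error of 0.19, depth limits what can be resolved.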
